A study of Homo sapiens with 39 samples.

Results

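The comparison described here is that of U87-MG cultures given 16Gy and harvested on day 4 with U87-MG cultures given 16Gy and harvested on day 1, which asks how heavily irradiated glioblastoma cells changed with time. U87-MG is an established human glioblastoma cell line. The 6 samples, 3 for each day, were taken by their labelled dose and day from a series of 39 samples in 12 groups of dose (0, 8 or 16Gy) and day (1, 4, 6 or 35). All cultures of days 1, 4 and 6 were grown in minimum essential medium with 10% fetal bovine serum, plated the night before, and exposed once to Cs-137 gamma rays at 0.48Gy per minute or, at 0Gy, sham irradiated. Total RNA was hybridised to HumanHT-12 version 4 bead arrays, 1 color arrays that give 1 brightness value per probe. The 3 replicates of a group are labelled as independent experiments, and replicate 1 of each is the authors' average of 2 technical runs of the same RNA. The 0Gy and 8Gy cultures of the same days and the 16Gy cultures of day 6 are used only to show where the 16Gy change from day 1 to day 4 differed. Time after irradiation and time after plating advance together in these cultures and cannot be told apart within 1 dose.

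Cells that survive a large dose of ionizing radiation can stop dividing for long periods while staying alive and metabolically active. Such cells are known to release a mixture of cytokines, chemokines, growth factors and proteases, much of it under the control of the transcription factor NF-kB, whose inhibitor I-kappa-B-alpha holds it in the cytoplasm until signals such as interleukin-1 release it. Genes for mitosis and DNA replication are switched off together in cells that leave the cycle, through the DREAM complex and the retinoblastoma proteins.

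Values are the deposited log2 signals, and every difference below is a day 4 mean minus a day 1 mean on that scale, with its standard error from a moderated linear model (limma) of 27 samples in the 9 groups of days 1, 4 and 6. Olfactory receptor genes, which such cells should not transcribe, served as the background, and a gene was tested when its probe outshone nearly all of their probes throughout 1 or more groups, and 11289 of 20041 genes passed. In the 6 samples that background lay between 6.81 and 6.89 on the log2 scale. A gene is called higher or lower when its Benjamini-Hochberg adjusted p over all genes tested is under 0.10 and its fold change is over 1.5. The p-values set a difference against a spread between replicates that the model estimates from all 27 samples and moderates over genes. Pearson's r between 2 samples over the genes tested was 0.982 to 0.990 within a day and 0.968 to 0.979 between the days. The deviations of single genes from their group's mean were widest in day 4 replicate 3 (SD 0.174 on the log2 scale) and day 1 replicate 2 (SD 0.163), against 0.133 to 0.151 in the other 4 samples. All 8 markers of mesenchymal glioma cells, among them VIM, CD44 and ANXA1, were above background in all 6 samples. Of 6 glial markers GFAP, S100B and AQP4 were at background throughout and SOX2 was above it in 1 sample, while OLIG2 (7.03 to 7.76) and SLC1A3 (7.92 to 8.80) were above it in all 6. CDKN2A, which U87-MG cells are known to have lost, was above background in 0 of 6 samples (6.56 to 6.77), but CDKN2B, its neighbour in the same locus, was above it in 2 (6.73 to 7.0). Of the markers of other cell types TEK of 6 endothelial, SNAP25 of 5 neuronal and 0 of 6 epithelial genes were above background in all 6 samples. Of 7 leukocyte markers PTPRC, ITGAM and TYROBP were at background in every sample, while the summed linear signal of the list was 4366 to 4982 on day 1 and 5641 to 6089 on day 4. Among them CD68 read 11.55 to 11.86 on day 1 and 12.14 to 12.32 on day 4, and CSF1R fell by 0.90 on the log2 scale. The part of such cells in the results below was not tested. Arrays of whole cultures do not tell fewer cells with a transcript from less transcript per cell.

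Between day 1 and day 4 the 16Gy cultures gained transcripts of secreted inflammatory proteins and lost, by smaller amounts, transcripts of mitosis. Of the 11289 genes tested 471 were called (4.17%), of which 315 were higher on day 4 (2.79%) and 156 lower (1.38%). The rises were the larger changes, with 102 genes past 2-fold and 22 past 4-fold, against 12 and 0 among the falls. The median log2 difference was 0.82 for the genes called higher, -0.673 for those called lower, and -0.01 over all genes tested. The 3 values of day 4 lay wholly above those of day 1 for 300 of the 315 genes and wholly below for 146 of the 156, while the groups stood apart in either direction for 23.8% of all genes tested. When each of the 6 samples was left out in turn, 197 of the genes called higher and 61 of those called lower kept their call in every fit, and of the 102 genes past 2-fold 99 did. An exact permutation test of 3 against 3 samples cannot give a two-sided p below 0.1, so the tests of single genes rest on the spread that the model pools over genes.

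**Figure D1:**
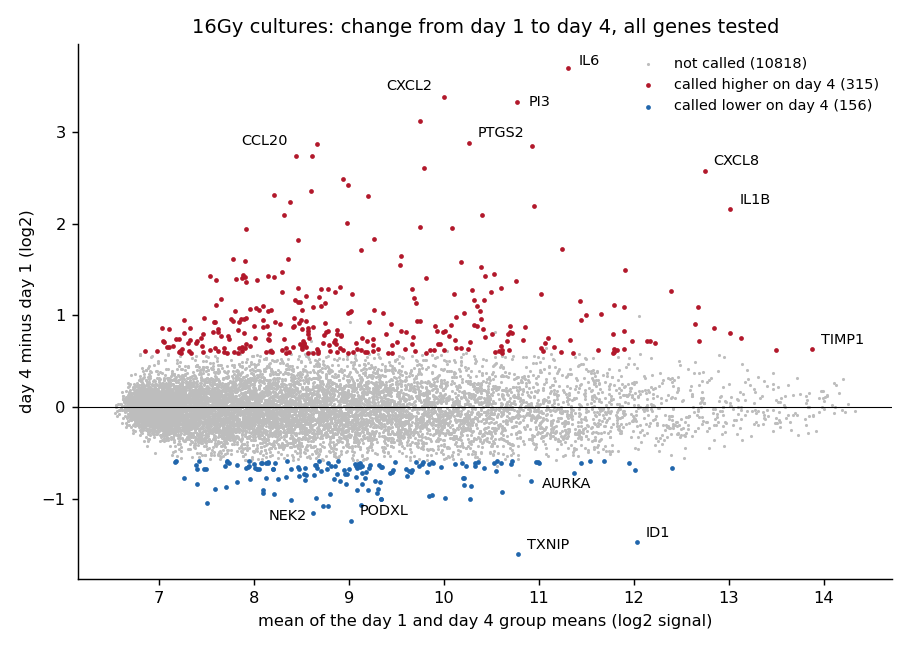
Day 4 minus day 1 in the 16Gy cultures (vertical axis, log2) against the mean of both group means (horizontal axis, log2 signal) for the 11289 genes tested, with 315 genes called higher in red and 156 called lower in blue. The rises reach a log2 difference of 3.69 (IL6) and are found at all signal levels, while no fall exceeds 1.61 on that scale (TXNIP).

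The chemokines, small secreted proteins that attract leukocytes, gave many of the largest rises. Of 24 genes in the list 13 were tested, and 9 of these were called higher and 0 lower. The median log2 difference was 2.36 over the 13 genes tested and 0.26 over all 24, against -0.01 over all genes tested. CXCL2, which attracts neutrophils through the receptor CXCR2, had log2 signals of 7.92, 8.21 and 8.81 on day 1 and 11.32, 12.01 and 11.74 on day 4. The lowest day 4 sample was thus well above the highest day 1 sample, and the rise was 3.38 ± 0.40 (log2, SE, n = 3 and 3), or 10.4-fold, with an adjusted p of 2.79e-06 (limma). CXCL8, or interleukin-8, was already well above background on day 1, at 11.49, 11.57 and 11.30, and stood at 13.72, 14.52 and 13.86 on day 4, a rise of 2.58 ± 0.41 (adjusted p = 1.27e-04). CXCL1 went from 7.31, 7.40 and 7.54 to 9.42, 9.80 and 10.10, a rise of 2.36. CCL20, which attracts lymphocytes and dendritic cells through CCR6, was near background on day 1 at 6.90, 7.20 and 7.10 and reached 9.68, 9.75 and 10.0 on day 4, a rise of 2.74 ± 0.27 (adjusted p = 2.48e-07). CCL2, the main monocyte attractant, rose by 2.60 and CCL5 by 1.29. None of these groups overlapped. CCL3 and CCL3L3 rose by 2.74 and 2.87, but the CCL3 genes are near-identical copies whose probes may not tell them apart. CXCL5 rose by 1.39 from values at the edge of background, and it was 1 of the 16 genes that were called between day 4 and day 6 (0.142% of those tested), with a further rise of 1.34.

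**Figure D2:**
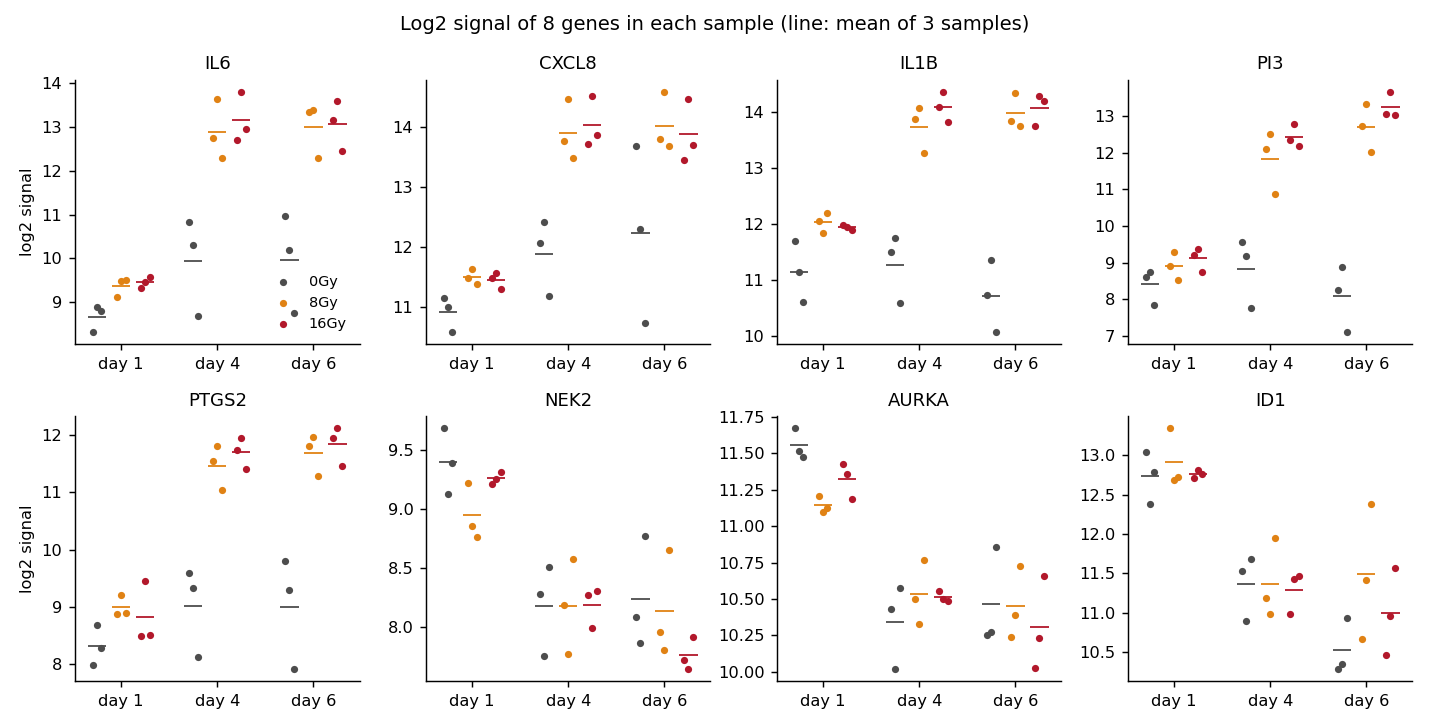
Log2 signal of 8 genes (vertical axis) in each short-term sample by day (horizontal axis) and dose, with 0Gy in grey, 8Gy in orange and 16Gy in red, points for samples and lines for the mean of 3 samples. At 16Gy the day 4 values of IL6, CXCL8, IL1B, PI3 and PTGS2 lie above all day 1 values, and those of NEK2, AURKA and ID1 lie below them.

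Among other cytokines 6 of the 13 tested members of a list of 17 were called higher and 0 lower, with a median log2 difference of 0.54. That median followed the filter on dim genes, at 0.36 over the 15 genes with a probe, 1.16 over the 8 that passed a stricter background and 1.59 over the 7 above background in every sample, and 6 genes were called higher in each. IL6, the cytokine of the acute phase response, showed the largest rise of any gene. Its values were 9.33, 9.46 and 9.58 on day 1 and 12.70, 13.80 and 12.95 on day 4, a rise of 3.69 ± 0.44 or 12.9-fold (adjusted p = 2.79e-06). All 3 samples of day 4 exceeded all 3 of day 1 by more than 3 log2 units, and replicate 2 was the highest. CSF3, the growth factor of neutrophils, rose from 8.18, 7.98 and 8.42 to 11.22, 11.93 and 10.77, a difference of 3.11 ± 0.37 (adjusted p = 2.79e-06). LIF, a member of the interleukin-6 family that acts through the shared receptor chain gp130, rose by 2.0 and IL24 by 1.59. IL12A rose by a smaller 0.72 from values near background. IL11 rose by 0.69 (adjusted p = 0.03), and without day 1 replicate 1 or day 4 replicate 1 it was no longer called, with a log2 difference of 0.53 and an adjusted p of 0.16 without the latter.

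The interleukin-1 family moved in the same way, with 6 of 12 tested genes called higher and 0 lower and a median log2 difference of 0.71. The median was 1.71 over the 9 genes that passed the stricter background and 2.02 over the 6 above background in every sample. Over all 15 with a probe it moved by less than the spread between samples. A gene can pass the filter through 1 group where it is high, so these medians are no separate support. Both agonists and antagonists of the family were among the called genes. IL1B, a cytokine that activates NF-kB in its target cells, read 11.97, 11.94 and 11.89 on day 1 and 14.09, 14.36 and 13.83 on day 4. The 3 day 4 samples lay about 2 log2 units over the 3 of day 1, and the rise was 2.16 ± 0.28 (adjusted p = 5.08e-06). IL1A, its cell-associated relative, rose by 2.10 ± 0.24 (adjusted p = 1.44e-06). IL1RN, the secreted antagonist of the interleukin-1 receptor, went from 6.92, 6.93 and 6.98 to 8.77, 9.01 and 8.87, a rise of 1.94 ± 0.25 (adjusted p = 6.19e-06). IL36RN, the antagonist of the interleukin-36 receptor, rose by 2.49 ± 0.31, and IL36B, an agonist of that receptor, by 1.71 ± 0.28. IL1F10 was above background in 0 of 3 samples of day 1 and in all 3 of day 4, and measured against the background level it was at least 1.63-fold higher on day 4. IL36B, IL36RN, IL1F10 and IL1RN are neighbours among the tested genes of chromosome 2 and were all called higher, as were IL1A and IL1B, which are neighbours on the same chromosome. IL33 did not reach the fold threshold by day 4 (0.57, adjusted p = 0.00203), and rose between day 4 and day 6 by 0.68 (adjusted p = 0.00508), as did its receptor IL1RL1 (0.79, adjusted p = 0.0244).

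Most NF-kB subunits and well-known NF-kB target genes rose. All 17 tested genes of a list of 19 had a positive difference, and 10 passed the test, with a median of 0.85. They included subunits of the factor (NFKB1, 0.89, and RELB, 0.85) and several of its feedback inhibitors. NFKBIA, which encodes I-kappa-B-alpha, went from 11.28, 11.49 and 11.30 to 12.13, 12.77 and 12.45, a rise of 1.09 ± 0.17 (adjusted p = 9.95e-05). TNFAIP3, the ubiquitin-editing enzyme A20, went from 7.37, 7.57 and 7.38 to 8.66, 9.03 and 8.90, a rise of 1.42 ± 0.18 (adjusted p = 4.63e-06). NFKBIZ, a nuclear cofactor needed for IL6 transcription, rose by 1.95, and ZC3H12A, an RNase that degrades cytokine messages, by 1.61. The largest rise of the list was that of SOD2, the mitochondrial superoxide dismutase, from 9.97, 9.69 and 9.91 to 11.99, 12.31 and 11.83, a difference of 2.19 ± 0.29 (adjusted p = 6.46e-06). IER3 rose by 1.09. ICAM1, an adhesion molecule for leukocytes, rose by 0.67, and was called neither without day 4 replicate 2, where the log2 difference was 0.51, nor without day 4 replicate 3.

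Because these genes moved together, their promoters were read for the core of an NF-kB site, written as GGG, any 2 bases and TTTCC, on both strands in the window from 250 bases before to 50 bases after the RefSeq start site (GRCh38.p14). Of the 471 called genes 349 matched an entry of the promoter table. The letters were found in 9 of 24 promoters of called members of the chemokine, cytokine, interleukin-1 and NF-kB lists (37.5%), and in 1.92% of all 27305 promoters of the table. They stood in 4 of 7 matched promoters of called chemokines, 0 of 5 of the interleukin-1 family and 4 of 8 of the NF-kB list. They stood in 5.12% of the 215 matched promoters of all genes called higher. The NF-kB list was made up of known subunits and targets, so its matches are no finding of these data. Uncalled members of the lists were not counted, so the shares may hold for listed genes whether called or not. A match describes the letters only and is no measurement of binding. The following stretches upstream of the start site are shown for the genes with a match other than NFKB1 and NFKBIZ. They run from 5′ to 3′ on the strand of the gene, with the matched letters in capitals. Where the match is on the other strand the capitals read as its reverse complement.
IL6 (chr7:22727100-22727199, plus strand): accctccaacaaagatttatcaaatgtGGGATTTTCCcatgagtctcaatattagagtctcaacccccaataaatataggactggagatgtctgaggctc
CXCL1 (chr4:73869293-73869392, plus strand): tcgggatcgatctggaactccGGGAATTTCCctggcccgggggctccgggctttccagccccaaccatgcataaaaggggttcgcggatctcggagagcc
CXCL2 (chr4:74099196-74099295, minus strand): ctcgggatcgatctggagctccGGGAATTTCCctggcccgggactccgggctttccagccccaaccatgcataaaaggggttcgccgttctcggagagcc
CXCL5 (chr4:73998678-73998777, minus strand): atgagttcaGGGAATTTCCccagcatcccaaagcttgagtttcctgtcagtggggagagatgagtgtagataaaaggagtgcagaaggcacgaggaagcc
CCL20 (chr2:227813742-227813841, plus strand): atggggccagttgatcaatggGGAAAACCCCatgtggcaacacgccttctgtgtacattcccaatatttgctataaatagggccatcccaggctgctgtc
NFKBIA (chr14:35404750-35404849, minus strand): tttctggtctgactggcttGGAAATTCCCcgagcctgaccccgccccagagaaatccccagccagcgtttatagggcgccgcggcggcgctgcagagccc
TNFAIP3 (chr6:137867159-137867258, plus strand): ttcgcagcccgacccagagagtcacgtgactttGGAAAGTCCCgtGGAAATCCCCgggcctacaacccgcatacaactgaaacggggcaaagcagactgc
In the CXCL1 and CXCL2 promoters the matches have the same 10 letters at nearly the same distance from the start, beginning at positions -79 and -78, and in the TNFAIP3 promoter there are 2 matches. No match was found in the window of CXCL8 with these letters, which says only that this core is not in this window.

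Other secreted products of the same kind rose as well. PTGS2, or cyclooxygenase 2, which makes the precursor of prostaglandins, had values of 8.49, 9.45 and 8.51 on day 1 and 11.74, 11.95 and 11.41 on day 4, a rise of 2.88 ± 0.35 (adjusted p = 2.79e-06). PTGES, which turns that precursor into prostaglandin E2, rose by 1.52 ± 0.26 (adjusted p = 3.27e-04). These were the only called members of 6 tested genes of prostaglandin synthesis and signaling, whose median was 0.07. PI3, whose product elafin inhibits neutrophil elastase, showed the third largest rise of all genes. It read 9.22, 9.36 and 8.75 on day 1 and 12.35, 12.77 and 12.19 on day 4, and the difference of 3.32 ± 0.41 corresponds to 10-fold (adjusted p = 3.60e-06). DEFB103A, an antimicrobial defensin whose gene has near-identical copies, rose by 2.32 from near background. C11orf96, a gene of little known function, rose by 2.84, and SLC25A24, a mitochondrial carrier of ATP and phosphate, by 2.42. Complement genes outside the lists were among the genes called higher (C3 1.26, CFB 0.93 and C1S 0.82); they were chosen for mention after their values were seen.

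Genes of the extracellular matrix and its turnover rose in part. Of 14 tested matrix proteases 5 were called higher and 0 lower (median 0.36). MMP3, or stromelysin-1, went from 11.78, 11.96 and 11.54 to 12.92, 13.28 and 12.89, a rise of 1.27 ± 0.29 (adjusted p = 0.00478), and ADAMTS1, which cleaves proteoglycans, from 9.05, 9.17 and 9.09 to 10.56, 10.54 and 10.43, a rise of 1.41. The metalloelastase gene MMP12 rose by 1.43 and MMP10 by 0.71, both from values at or near background. MMP1, the interstitial collagenase, rose by 0.66 (adjusted p = 0.061), a call that was lost without any 1 of 4 samples, with a lowest difference of 0.38 and an adjusted p of 0.342 without day 4 replicate 1. MMP10, MMP1, MMP3 and MMP12 are neighbours on chromosome 11 among the genes tested. Of 14 tested protease inhibitors 5 were called higher (median 0.37): beside PI3 these were TIMP3 (1.58), SPINK1 (1.44), TIMP1 and SERPINB4. TIMP1, an inhibitor of metalloproteinases, rose from 13.44, 13.67 and 13.57 to 14.13, 14.24 and 14.21. Without day 1 replicate 1 the count of inhibitors called was 3, and the values of SERPINB4 overlapped between the days. Of 30 tested collagens, laminins and other matrix genes 8 were called higher and 0 lower (median 0.20, and 0.06 over all 35 with a probe), and the largest change was that of decorin, a small proteoglycan that binds collagen and TGF-beta. DCN values were 8.0, 8.29 and 7.85 on day 1 and 10.38, 10.66 and 10.01 on day 4, a rise of 2.30 ± 0.28 (adjusted p = 2.79e-06). The related lumican (LUM, 1.42), fibronectin (FN1, 1.06) and transglutaminase 2 (TGM2, 1.01) also rose, while 0 of the collagen chains did. Of 13 tested integrin and CD44 genes 0 were called in either direction (median 0.10).

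Growth factor genes went both ways. Among 22 tested EGFR ligands and MAPK feedback genes 4 were called higher and 1 lower (median 0.20). NRG1, a ligand of ERBB3 and ERBB4, rose from 7.92, 8.20 and 8.06 to 9.85, 9.36 and 8.82, a difference of 1.29 ± 0.22 (adjusted p = 3.27e-04), while TGFA, a ligand of EGFR, fell from 10.66, 10.85 and 10.27 to 9.78, 10.06 and 9.61, a difference of -0.78 ± 0.20 (adjusted p = 0.0146). Without day 4 replicate 2 only NRG1 of the 4 remained called, but with the mean of all probes of the gene in place of the brightest its difference was 0.29 and it was not called. Of 12 vascular growth factor genes 3 were called higher and 1 lower, namely FGF2 (1.19), ESM1 (1.18) and the semaphorin and VEGF coreceptor NRP2 (0.97) against placental growth factor (PGF, -0.82). NRP2 was not called with the mean of all its probes (0.45). ESM1, or endocan, rose again by 1.37 from day 4 to day 6 (adjusted p = 0.00103). Of 16 TGF-beta, BMP and YAP target genes 4 were higher and 3 lower. The 3 that fell are targets of BMP signaling. ID1, an inhibitor of differentiation factors, had values of 12.71, 12.82 and 12.76 on day 1 and 10.98, 11.43 and 11.46 on day 4, a fall of 1.47 ± 0.31 (adjusted p = 0.00229), with no overlap. SMAD6, an inhibitory SMAD, fell by 1.08 and ID3 by 0.96. At 0Gy 4 of the 16 genes were called lower, against 2.77% of all genes tested. The 16Gy change was called below that at 0Gy for 0 of the 16, against 2.44% of all genes tested. The ligand BMP2 rose by 0.97 ± 0.16 in the 16Gy cultures, as did the YAP target CCN1 by 0.94. ANKRD1, another YAP target, was above background in 0 of 3 samples of day 1 and was at least 1.52-fold higher on day 4.

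Histone genes rose in part, with 7 of 30 tested genes of a list of 55 called higher and 0 lower (median 0.17). H2AC18 went from 9.40, 9.59 and 10.14 to 10.93, 11.34 and 11.17, a rise of 1.43 ± 0.22 (adjusted p = 8.71e-05), and H2AC19 and H2AC20, which are near-identical to it and may share signal, rose by 1.45 and 1.27. H2AJ, a histone variant made outside S phase, rose by 0.98 ± 0.20 (adjusted p = 0.0022), and H2BC21 by 0.97 with a further 0.72 by day 6. Of 30 tested p53 targets 2 were called (median 0.07), GADD45A, a stress-induced inhibitor of growth, and GDF15, a secreted stress hormone. Relative to the 16Gy day 1 mean, the mean of the 30 genes was -0.38 to -0.35 in the 0Gy samples of day 1. The list was thus already higher at 16Gy than at 0Gy on day 1. GADD45A went from 10.12, 10.52 and 10.58 to 11.45, 11.81 and 11.67, a rise of 1.24 ± 0.17 (adjusted p = 1.28e-05). GDF15 rose by 1.49 ± 0.35 (adjusted p = 0.00635), with day 1 replicate 1 (10.44) far below the other 2 samples of that day. CDKN1A, the p21 inhibitor of cyclin-dependent kinases and a central p53 target, read 13.27, 13.56 and 13.02 on day 1 and 13.34, 13.42 and 13.36 on day 4, so the groups overlapped and the difference was 0.09 ± 0.12 (adjusted p = 0.696). Of 14 tested CDK inhibitors and G1 regulators MYC was called (0.69), and not without day 1 replicate 2, where the difference was 0.57.

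Many mitotic genes fell. All 53 tested genes of mitosis and cytokinesis had a negative difference, 19 of them passed the test, and the median was -0.47. Over all genes tested 1.38% were called lower. NEK2, a kinase that separates the centrosomes, had values of 9.21, 9.26 and 9.32 on day 1 and 8.27, 7.99 and 8.30 on day 4, a fall of 1.08 ± 0.23 (adjusted p = 0.00246). CCNB2, or cyclin B2, which drives entry into mitosis with CDK1, had values of 11.04, 10.58 and 10.71 on day 1 and 9.77, 9.46 and 10.09 on day 4, a fall of 1.01 ± 0.19 (adjusted p = 7.98e-04). AURKA, the kinase Aurora A of the spindle poles, went from 11.43, 11.36 and 11.19 to 10.56, 10.50 and 10.48, a fall of 0.81 ± 0.17 (adjusted p = 0.00251). In all 3 genes the 3 samples of day 4 lay below the 3 of day 1. SPC25, a subunit of the outer kinetochore, fell by 0.87, HMMR, a spindle and hyaluronan binding protein, by 0.81, and ASPM, which focuses the spindle poles, by 0.89. The number called depended on single samples, from 10 without day 4 replicate 2 to 26 without day 1 replicate 3, and 7 genes kept their call throughout, NEK2, CCNB2, AURKA, SPC25 and HMMR among them and ASPM, PLK1 and CDC20 not. SPC25 was not called with the mean of all its probes (-0.51). Cyclin A2 (CCNA2) was not called, at 9.83, 9.66 and 9.22 on day 1 and 9.0, 9.21 and 9.19 on day 4 (-0.44, adjusted p = 0.174), although its groups did not overlap.

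Of the 19 mitotic genes 17 had an entry in the promoter table, and 16 of these held the letters CCAAT on either strand (94.1%), against 35.7% of all promoters and 55.2% of the 134 matched promoters of genes called lower. The letters TTTGAA, the core of the cell cycle homology region that the DREAM complex is known to bind, were found in 11 of the 17 (64.7%), against 15.4% of all promoters and 29.1% of those of genes called lower. Neither motif contains the other. Uncalled members of the list were not counted, so these shares may hold for mitotic genes whether called or not. The E2F letters TTTCGCGC were found in 0 of the 17, against 0.546% of all promoters. The stretches below, from GRCh38.p14 and RefSeq as above, show the TTTGAA matches of 4 of the mitotic genes in capitals.
CCNB2 (chr15:59105046-59105145, plus strand): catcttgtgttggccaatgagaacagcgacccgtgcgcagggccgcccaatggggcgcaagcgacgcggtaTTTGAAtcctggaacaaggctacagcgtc
PLK1 (chr16:23678789-23678888, plus strand): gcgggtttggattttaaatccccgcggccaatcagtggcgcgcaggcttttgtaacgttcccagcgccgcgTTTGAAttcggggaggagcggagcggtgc
CDC20 (chr1:43358881-43358980, plus strand): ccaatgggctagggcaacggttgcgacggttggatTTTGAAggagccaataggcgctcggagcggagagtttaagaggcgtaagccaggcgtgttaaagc
HMMR (chr5:163460532-163460631, plus strand): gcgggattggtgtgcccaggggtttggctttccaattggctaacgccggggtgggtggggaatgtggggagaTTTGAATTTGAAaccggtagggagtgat
The matches of CCNB2 and PLK1 both begin at position -29 from the start, HMMR has 2 matches in direct succession, and all 4 stretches hold CCAAT upstream of the capitals.

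Fewer DNA replication genes were called. Of 52 tested genes 8 were called lower and 0 higher, 48 had a negative difference, and the median was -0.33. The called genes were DUT (-0.72), which keeps uracil out of DNA, the clamp loader subunit RFC5 (-0.65), the polymerase alpha and primase subunits POLA2 (-0.64) and PRIM1 (-0.60), the chromatin assembly factors CHAF1A (-0.63) and CHAF1B (-0.63), UHRF1 (-0.61) and GINS2 (-0.61). Each of the 8 lost its call in at least 1 fit without a sample, and 4 were called without day 1 replicate 2. Of 33 tested DNA repair genes 0 were called (median -0.12), as were 0 of 13 genes for chromatin and lamina proteins such as lamin B1 that are known to be lost in senescence (median -0.15). Over all genes tested 1.38% were called lower, so counts of 0 in lists of this size are near that share. At 0Gy 6 of the 13 were called lower, and for 4 the changes differed between the doses. The mean of the 13 was 0.36 to 0.53 log2 units higher in the 0Gy samples of day 1 than the 16Gy day 1 mean. Of 26 ribosome biogenesis genes 1 was called, BOP1 (-0.64), and not without day 1 replicate 2, day 4 replicate 1 or day 4 replicate 2.

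**Figure D3:**
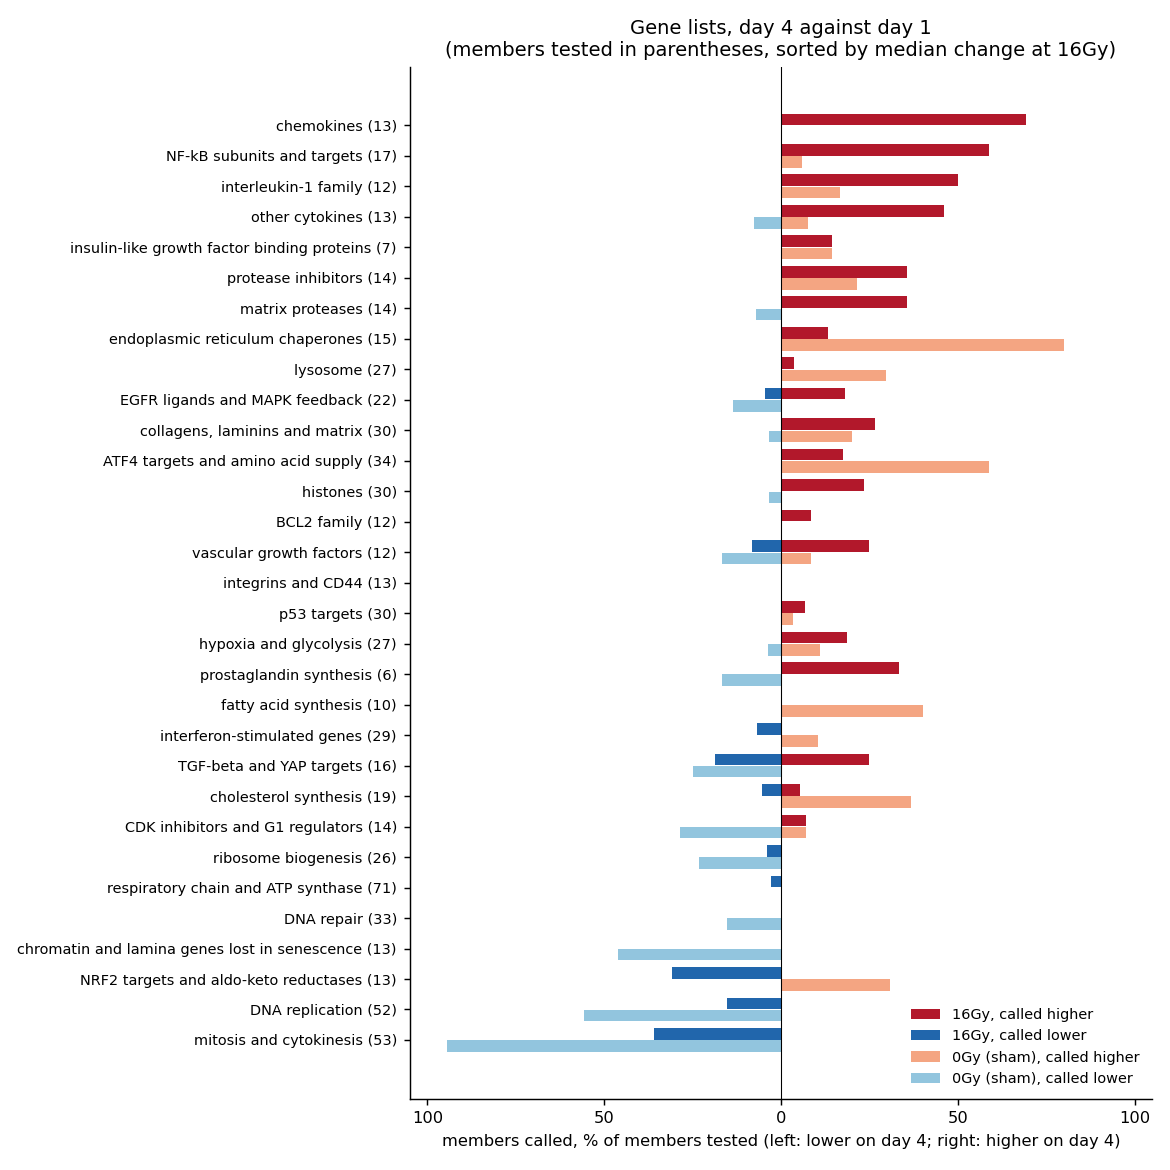
Percent of the tested members of each of 31 gene lists (vertical axis, tested members in parentheses) that were called higher (right, red) or lower (left, blue) on day 4 than on day 1, with 16Gy in dark and 0Gy in light bars. Chemokine, NF-kB, interleukin-1 and cytokine genes were called higher at 16Gy, while mitosis and DNA replication genes were called lower more often at 0Gy.

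The metabolic and stress lists gave 4 to 6 calls in some cases and 0 to 2 in others, beside 2.79% of all genes tested called higher and 1.38% called lower. The 4 called members of 13 NRF2 targets and aldo-keto reductases were all lower (median -0.28, and -0.12 over all 16 with a probe). AKR1C3, an enzyme of steroid and prostaglandin reduction, went from 10.62, 11.03 and 11.04 to 10.12, 10.34 and 10.15, a fall of 0.69 ± 0.16 (adjusted p = 0.00475), and AKR1B10 fell by 0.73 ± 0.14 (adjusted p = 0.00118). AKR1C2 (-0.64) was not called without day 1 replicate 3, and with the mean of all its probes its difference was -0.06 (adjusted p = 0.523). NQO1 (-0.59) was not called in 3 of the 6 fits without 1 sample or with the mean of its probes (-0.32), which left 2 called genes and a list median of -0.13, and the AKR1C genes are similar enough for probes to share signal. Of 34 genes of the ATF4 response and amino acid supply 6 were called higher (median 0.18), among them DDIT3, which encodes the stress factor CHOP (1.96 ± 0.29, adjusted p = 4.99e-05), and ATF3 (1.84 ± 0.23, adjusted p = 4.63e-06). Without day 1 replicate 1 that count was 3. Of 15 endoplasmic reticulum chaperones and related genes 2 were called, DNAJB9 (1.20) and XBP1 (0.61), the latter with overlapping groups. Of 27 hypoxia and glycolysis genes 5 were called higher (median 0.07), with ADM (0.86) and CA12 (0.80) the largest, and 3 without day 1 replicate 3 or day 4 replicate 2. Of 19 cholesterol synthesis genes 1 was higher (LSS, 0.62) and 1 lower (ACAT2, -0.65), and of 10 fatty acid synthesis genes 0 were called. Of 71 subunits of the respiratory chain and ATP synthase 2 were called lower, SDHA (-0.71) and NDUFV1 (-0.60), and 53 had a negative difference (median -0.10). Of 29 interferon-stimulated genes 2 were lower, IFI44 (-0.79) and OASL (-0.63), of 27 lysosomal genes 1 was higher, ATP6V1B2 (0.72), of 12 BCL2 family genes 1 was higher, PMAIP1 (0.62), and of 7 insulin-like growth factor binding proteins 1 was higher, IGFBP4 (0.83, adjusted p = 0.0879). The calls of several of these genes were lost when 1 sample was left out. For LSS this was day 1 replicate 2 or day 4 replicate 2 (lowest difference 0.55), for ATP6V1B2 day 4 replicate 1 (0.54), and for PMAIP1 day 1 replicate 1, day 4 replicate 1 or day 4 replicate 3 (0.51). For XBP1 it was replicate 1 or 2 of either day (0.44), and for IGFBP4 replicate 2 or 3 of either day (0.64). For ACAT2 and OASL it was day 1 replicate 1 or day 4 replicate 3 (smallest falls -0.50 and -0.52), and for NDUFV1 day 1 replicate 2, day 4 replicate 1 or day 4 replicate 3 (-0.53).

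The falls outside the lists were led by genes of varied function. PODXL, a sialomucin of the cell surface, had values of 9.87, 9.69 and 9.35 on day 1 and 8.36, 8.23 and 8.60 on day 4, a fall of 1.24 ± 0.22 (adjusted p = 4.92e-04). With the mean of all its probes the difference was -0.53 and PODXL was not called. FHOD1, a formin that assembles actin filaments, went from 9.98, 9.53 and 10.03 to 8.85, 8.71 and 8.96, a fall of 1.01 ± 0.17 (adjusted p = 1.82e-04). ARHGAP44, a GTPase-activating protein, fell by 1.04, ST8SIA5, a sialyltransferase, by 1.07, IGF2BP3, an RNA-binding protein, by 1.0, DPYSL3 by 1.0 and ACOX2, a peroxisomal oxidase, by 0.97. PARPBP, a regulator of homologous recombination, fell by 1.01. CGB1 and CGB5, near-identical genes of the chorionic gonadotropin beta cluster, fell by 1.15 and 0.99, with day 4 replicate 3 nearest to day 1 in both (8.79 and 8.85), and CGB1 was not called with the mean of all its probes (-0.53). TXNIP, an inhibitor of glucose uptake and thioredoxin, had the lowest difference of any gene tested, -1.61 ± 0.50, but its groups overlapped, with 11.84, 11.73 and 11.18 on day 1 and 8.60, 10.09 and 11.24 on day 4, and its call (adjusted p = 0.0414) was lost without any 1 of 4 samples. TXNIP differences were larger in the other cultures, at -3.64 at 0Gy and -2.64 at 8Gy. Its 16Gy minus 0Gy difference was not called (2.03 ± 0.70, limma adjusted p = 0.109).

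Among the called genes 46 of those higher and 12 of those lower stood directly beside a gene with the same call in the order of tested genes along RefSeq chromosomes, in 18 and 6 runs. Of all genes tested 2.79% were called higher and 1.38% lower. How many runs calls placed at random would give was not computed, and several runs hold close copies within 1 gene family. The longest run held the metallothioneins MT1M, MT1F, MT1G, MT1H and MT1X on chromosome 16, which encode small proteins that bind zinc and copper. They were picked after their values were seen. MT1G had values of 9.62, 9.97 and 10.02 on day 1 and 10.94, 11.08 and 11.35 on day 4, a rise of 1.26 ± 0.18 (adjusted p = 4.13e-05), and MT1M rose by 1.25, MT1H by 1.14, MT1X by 0.90 and MT1F by 0.79. MT1F was not called without replicate 3 of either day, day 1 replicate 1 or day 4 replicate 2 (lowest difference 0.69). MT1E (0.40) and MT2A (0.24) were not called. The metallothionein genes are close copies, so their probes may share signal.

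Sham cultures also changed between day 1 and day 4. At 0Gy 718 genes were called (6.36%), 405 higher (3.59%) and 313 lower (2.77%). Of the 315 genes called higher at 16Gy 75 were also called higher at 0Gy (23.8%, or 18.5% of the 405) and 2 were called lower. Of the 156 called lower 67 were also called lower at 0Gy (42.9%, or 21.4% of the 313) and 9 were called higher. The 0Gy difference had the same sign as that at 16Gy, called or not, for 238 of the 315 rises and 131 of the 156 falls. Across the 11289 genes the differences at 16Gy and 0Gy had a Pearson's r of 0.415, which describes genes and not replicates. The difference between the changes was tested for each gene as an interaction, and it passed the same thresholds for 517 genes (4.58%), with the 16Gy change above the 0Gy change in 242 and below it in 275. Over all genes tested 2.14% passed it with the 16Gy change above and 2.44% with it below. Among the 315 genes called higher at 16Gy 121 passed it in the direction of the rise, as did 18 of the 22 past 4-fold. Among the 156 called lower 28 passed it in the direction of the fall. The 16Gy change that picked these genes is also a term of the difference tested. The selection thus favours a pass in that direction, and these counts are no separate support. Without 0Gy day 4 replicate 3 the 517 became 335. In that sample the mean of the 13 chemokines was -0.48 relative to the 16Gy day 1 mean, against 0.20 and 0.10 in the other 0Gy samples of day 4. The standard error of this difference was larger than that of a change within 1 dose, with a median of 0.188 against 0.133.

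**Figure D4:**
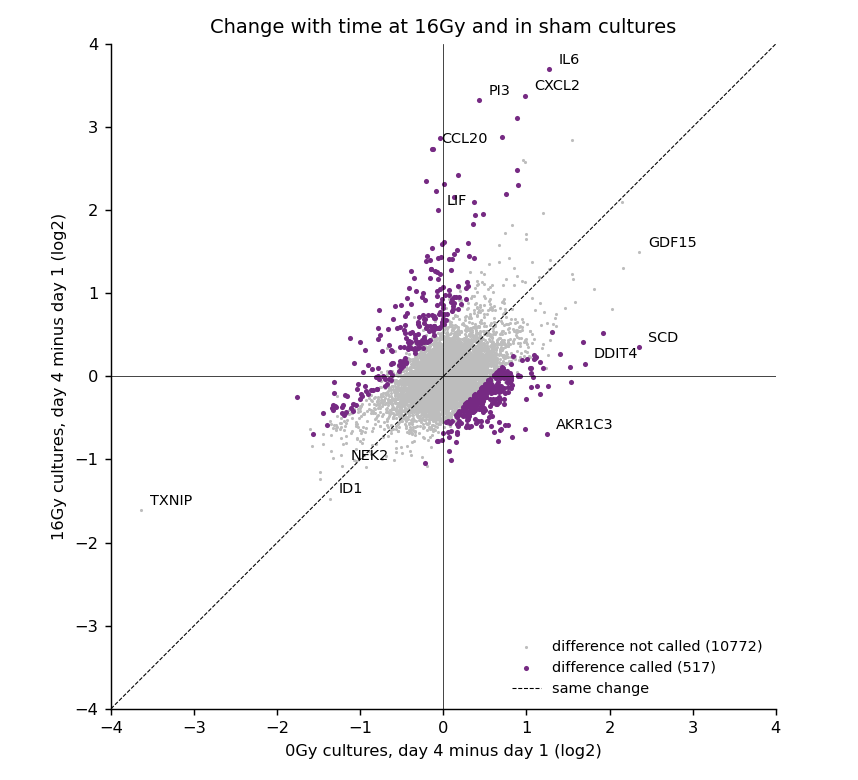
Day 4 minus day 1 in the 16Gy cultures (vertical axis, log2) against the same difference in the 0Gy cultures (horizontal axis, log2) for 11289 genes, with the 517 genes whose changes differed in purple and a dashed line where both changes are equal. Inflammatory genes such as PI3 and CCL20 lie high and near 0 on the horizontal axis, and SCD, DDIT4 and AKR1C3 lie to the right of the dashed line.

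The inflammatory genes made up the largest positive differences from sham. In the chemokine, cytokine, interleukin-1, NF-kB and prostaglandin lists together 61 genes were tested, 33 were called higher at 16Gy and 0 lower, and for 28 of these the rise exceeded that of sham cultures. The 16Gy change both picked the 33 and enters the test that the 28 passed. At 0Gy 4 of the 61 were called higher. Over all genes tested 2.79% were called higher at 16Gy and 3.59% at 0Gy, and 2.14% had a 16Gy change called above that at 0Gy. CCL3L3 (2.91 ± 0.42), PI3 (2.89 ± 0.58), CCL20 (2.87 ± 0.38), CCL3 (2.87), CXCL1 (2.57) and IL6 (2.42 ± 0.63) had the largest differences from sham. IL6 rose in sham cultures too, by 1.28, and the extra rise at 16Gy had an adjusted p of 0.0265. The rises of CXCL8 and CCL2 were not shown to exceed those of sham (1.60, adjusted p = 0.131, and 1.64, adjusted p = 0.11), where the 0Gy changes were 0.98 and 0.96 with wide spread. GDF15 and DDIT3 rose at both doses, by 2.36 and 1.20 at 0Gy, and their differences were not called. Other genes with a larger change at 16Gy were the histones H2AC18 to H2AC20, LIF (2.07), FGF2 (1.54), GADD45A (1.28) and MT1G (1.33).

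More mitotic genes were called lower in sham cultures than at 16Gy. At 0Gy 50 of the 53 were called lower, with a median of -1.17 against -0.47, and for 14 of them the difference of the changes was called, as it was for 7 of 52 DNA replication genes and 0 in the other direction. Over all genes tested 2.77% were called lower at 0Gy, and 2.14% had the 16Gy change called above that at 0Gy. The starting levels differed as well. Relative to the 16Gy day 1 mean, the mean of the 53 genes was 0.28 to 0.53 log2 units higher in the 0Gy samples of day 1, and on day 4 it was -0.60 to -0.39 at 16Gy and -0.89 to -0.51 at 0Gy, so that the ranges of the doses overlapped. On day 6 the 16Gy samples stood at -1.06, -0.96 and -0.62. CCNA2 fell by 1.45 at 0Gy and its difference was called (1.01, adjusted p = 0.0376), while NEK2 (0.15, adjusted p = 0.871) and CCNB2 (0.07, adjusted p = 0.93) were not shown to differ between the doses.

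**Figure D5:**
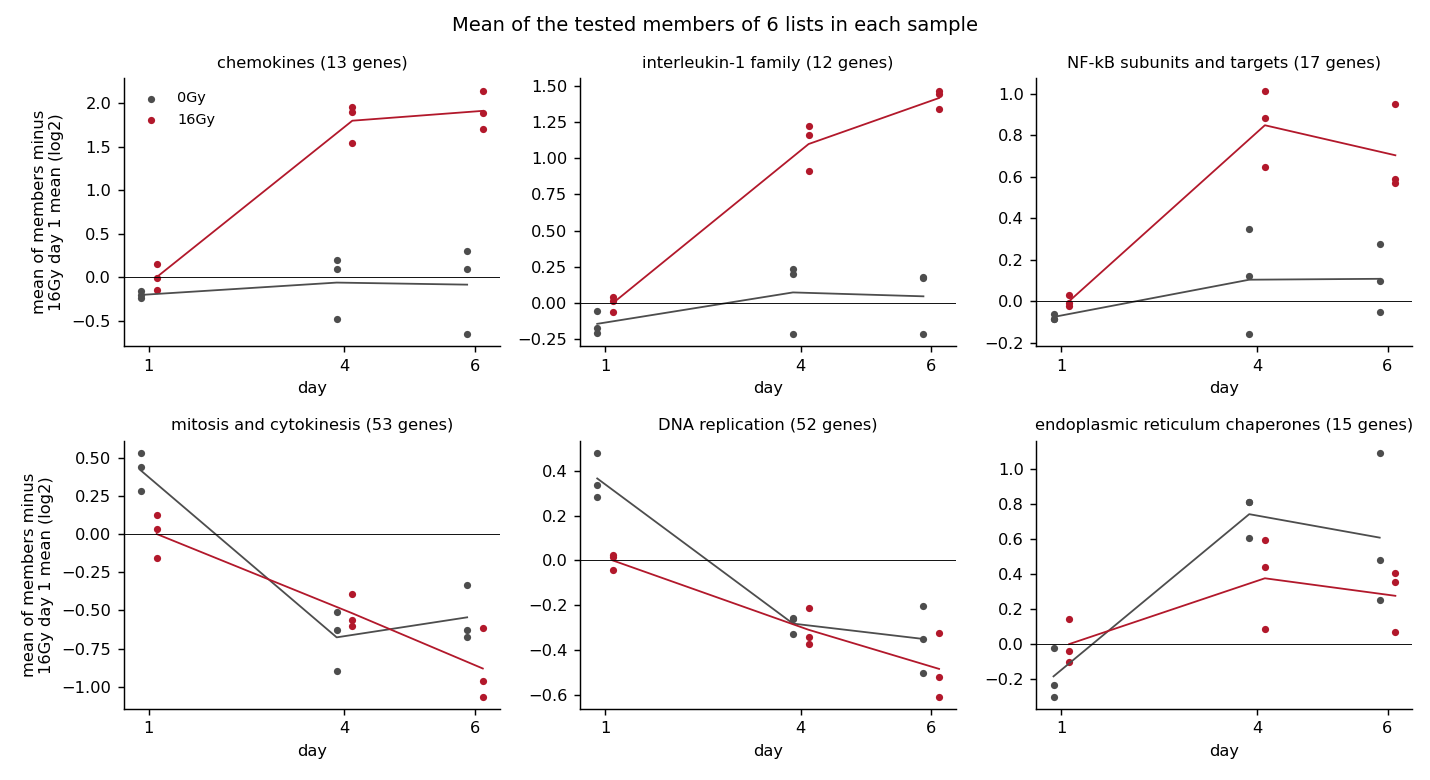
Mean log2 signal of the tested members of 6 gene lists in each sample, relative to the 16Gy day 1 mean (vertical axis), by day (horizontal axis), with 0Gy in grey, 16Gy in red and lines through the means of 3 samples. The chemokine mean at 16Gy is 1.54 to 1.96 on day 4 and 1.70 to 2.14 on day 6, and the mitosis mean is below 0 on both days at both doses.

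More genes of amino acid supply, protein folding and lipid synthesis were called higher in sham cultures than at 16Gy. At 0Gy 20 of 34 ATF4 genes (median 0.82 against 0.18), 12 of 15 endoplasmic reticulum chaperones (0.88 against 0.31), 7 of 19 cholesterol genes (0.26 against -0.05) and 4 of 10 fatty acid genes (0.35 against 0.0) were called higher. The 16Gy change was called below the 0Gy change for 7, 1, 3 and 3 members of these lists. Over all genes tested 3.59% were called higher at 0Gy, and 2.44% had the 16Gy change called below. The count of 1 of 15 chaperones is near that share, so a difference between the doses was not shown for that list. SCD, which desaturates fatty acids, rose by 2.35 at 0Gy and read 10.62, 10.87 and 10.81 on day 1 and 11.73, 11.12 and 10.50 on day 4 at 16Gy, with overlap, and the difference was -2.0 ± 0.45 (adjusted p = 0.0107). DDIT4, a stress-induced inhibitor of mTORC1, rose by 1.71 at 0Gy and was not called at 16Gy (0.15), a difference of -1.55 (adjusted p = 0.0101). The aldo-keto reductases, read by their brightest probes, moved in opposite directions, with AKR1C3 at 1.25, AKR1C2 at 0.98 and AKR1B10 at 0.83 in sham cultures, and the differences were -1.94, -1.61 and -1.56 (adjusted p = 9.41e-06, 1.19e-05 and 4.08e-05). The other genes called lower at 16Gy and higher at 0Gy were TOX2, ADAM8, ZNF385D, AK1, IL21R and ABCC2, and those called the other way were IL11 and ACTG2.

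Nearly all of the called genes also differed in the same direction at 8Gy. At 8Gy 322 genes were called (2.85%), and of the 315 genes called higher at 16Gy 180 were among them (57.1%, or 80% of the 225 called higher at 8Gy), as were 58 of the 156 called lower (37.2%, or 59.8% of 97). All 315 rises had a positive difference at 8Gy, and 155 of the 156 falls a negative one. The median size of change of the 471 genes was 0.749 at 16Gy and 0.603 at 8Gy in the same direction, and Pearson's r across all genes tested was 0.821. The 471 genes were picked by their change at 16Gy, which favours a larger size there, so these medians do not measure an effect of dose. IL6 rose by 3.53 at 8Gy, CXCL2 by 2.56, PI3 by 2.94, CCL20 by 1.90 and H2AC18 by 1.02. By limma the change with time was called different between 16Gy and 8Gy for 0 genes (0%), while 323 genes had an unadjusted p under 0.05. This does not show that the doses act alike, since the median standard error of the difference was 0.188. For IL6 the difference was 0.17 ± 0.63 and for CCL20 0.84 ± 0.38. The count of calls at 8Gy was 102 without its day 4 replicate 2 and 516 without its day 4 replicate 3.

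The 16Gy cultures were also sampled on day 6. Of the 16 genes called between day 4 and day 6, 7 were higher and 9 lower, 1331 genes had an unadjusted p under 0.05 by limma, and this comparison shares the day 4 samples with that of day 4 and day 1, so values are only set side by side. The median day 6 minus day 4 difference was -0.33 over the 53 mitosis genes, 0.38 over the 12 interleukin-1 family genes, -0.32 over the 30 matrix genes, -0.06 over the 13 chemokines and 0.01 over all genes tested. The list means of all 3 day 6 samples lay below those of the 3 day 4 samples for mitosis, as given above, and above them for the interleukin-1 family (1.34 to 1.47 against 0.91 to 1.22, relative to the 16Gy day 1 mean). For the matrix genes they were 0.27 to 0.43 on day 4 and -0.08 to 0.21 on day 6. The day 6 minus day 4 difference was -0.08 for IL6, -0.20 for CXCL2, -0.02 for IL1B and 0.14 for PTGS2, and 0 of these 4 were called. The genes higher on day 6 included SERPINB4, a squamous cell serpin (0.61 by day 4 and a further 1.35), ESM1, CXCL5, IL33, IL1RL1, H2BC21 and SERPIND1. Those lower were CDC20, an activator of the anaphase-promoting complex (-0.69 by day 4 and a further -0.98), COL1A1, COL8A1, CLEC3B, SUSD2, ANGPT1, LFNG, CNN2 and IFITM2. SUSD2 and CLEC3B were called higher by day 4 (1.05 and 0.84) and then lower by day 6 (-0.78 and -0.87). Without 16Gy day 4 replicate 1 the count was 164, and without day 4 replicate 3 or day 6 replicate 3 it was 4.

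Of the genes that the study names for its arrays and that are not given above, RRAD, a GTPase of the RGK family, went from 9.64, 10.03 and 9.84 to 10.66, 11.72 and 10.64, a rise of 1.17 ± 0.31 (adjusted p = 0.0172) that was not called without day 4 replicate 2 (0.81, adjusted p = 0.175). C1QTNF1, a secreted C1q-like protein, rose by 1.10 ± 0.20 (adjusted p = 6.75e-04), but was not called with the mean of all its probes (0.54). DDIT4L, an inhibitor of mTORC1, rose by 0.87 ± 0.20 (adjusted p = 0.00589). IGFBP1, which binds insulin-like growth factors, and CYSRT1 were not called (0.72, adjusted p = 0.178, and -0.44, adjusted p = 0.161), and their groups overlapped.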

How the data were processed

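RNA of 39 U87-MG samples was hybridised to HumanHT-12 bead arrays, and the analysis used the deposited log2 signals. According to the methods, the authors exported the signals with GenomeStudio, quantile normalized and log2 transformed them, separately for the 27 samples of days 1, 4 and 6 and the 12 of day 35, and ran ComBat on the former for batches that are not named, so that no value within a batch could be computed and the batch correction may narrow the spread between replicates. A deposited table of unnormalized signals and detection p-values names its 48 arrays by running numbers that match no sample, and its 96 columns were not used.

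Of 47300 probes 30100 name 1 gene, 8 several and 17192 none in the platform annotation, and symbols were updated by gene number for 20015 of 20041 genes. A gene was represented by its brightest probe. The 455 probes for olfactory receptors gave the background of each sample, and a gene was tested if its probe exceeded all but a share of 0.05 of them throughout 1 or more of the 12 groups. A floor of 16 on the linear signal touched no value. Linear models with a mean-variance trend (limma 3.58.1 in R 4.3.3) were fitted to the 27 short-term samples with a mean for each of 9 groups and no replicate term, and 6 comparisons were read from the fit, 2 of them differences between the changes of 2 doses. P-values were adjusted by Benjamini-Hochberg over the 11289 genes tested. The fitting code was tested on simulated data. Arrays give no counts, so the number of samples limits the precision.

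The genes named are the 15 largest rises and 15 largest falls with groups that do not overlap, up to 6 called members of each of 31 gene lists, the 6 largest differences from 0Gy in each direction, and genes named in the study. Other genes were named after their values were seen. The comparison and the lists were chosen with earlier results of these data known. Alternatives concerned the replicate number, the samples in the fit, the filter, the floor, the variance trend, the scaling, the choice of probe, the adjustment, the fold threshold and the methods' analysis of variance.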

Additional observations from a re-analysis of the deposited data

Results flagged for a closer look

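The change from day 1 to day 4 was itself compared between 16Gy and 0Gy by limma, and 517 genes passed the test of that difference, which is what brought the following genes here. Values are the 16Gy change minus the 0Gy change on the log2 scale, and no explanation was tested. Among cytokine, chemokine, interleukin-1, NF-kB and prostaglandin genes these were CXCL2 (2.40), CXCL5 (1.60), CCL5 (1.45), CCL3L3 (2.91), CCL20 (2.87), CCL3 (2.87), CXCL1 (2.57), IL6 (2.42), CSF3 (2.23), LIF (2.07), IL24 (1.61), IL12A (0.84), IL11 (1.29), IL1B (2.03), IL1A (1.74), IL1RN (1.56), IL1F10 (0.85, at background on day 1 at 16Gy), IL33 (0.68), IL36G (0.68), TNF (0.66), NFKB1 (0.76), TNIP1 (0.80), IL36RN (1.60), PTGS2 (2.18), PTGES (1.36), SOD2 (1.43), NFKBIZ (1.47), ZC3H12A (1.31), TNFAIP3 (1.05), NFKBIA (0.80) and IER3 (0.91). Among protease, protease inhibitor and matrix genes they included PI3 (2.89), SPINK1 (1.13), MMP12 (1.49), ADAMTS1 (1.34), MMP3 (1.37), MMP10 (0.81), DCN (1.41), FN1 (0.78) and TGM2 (1.25). Among growth factor and signaling genes they included NRG1 (1.43), DUSP1 (0.93), BMP2 (1.04), CCN1 (1.39), FGF2 (1.54) and ESM1 (1.35). Among histone genes they included H2AC19 (1.65), H2AC18 (1.46), H2AC20 (1.67), H2AJ (0.91), H2BC21 (0.95) and H4C8 (0.71), where the H2AC18 to H2AC20 probes may share signal. Further positive differences included those of SLC25A24 (2.24), DEFB103A (2.31), GADD45A (1.28), MYC (0.70) and ATF3 (1.48). CCNA2 also had a positive difference (1.01), because its fall at 0Gy was the larger. Negative differences included those of ARHGAP44 (-0.83), FHOD1 (-1.10), AKR1B10 (-1.56), AKR1C3 (-1.94), AKR1C2 (-1.61), NQO1 (-1.04), SCD (-2.0), AKR1C4 (-1.60) and DDIT4 (-1.55), and the AKR1C probes may share signal.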

How the results depend on the processing

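Of the 129 genes named by rule, 2444 values under 19 alternatives were compared with the values given above. Of these 2179 kept their side of the thresholds, 261 kept their direction and lost the call, 4 gained it and 0 reversed. A gene called in neither fit was counted as kept whatever its sign. Changes of the filter, floor, variance trend, adjustment, fold threshold, replicate term or groups fitted leave the difference itself unchanged. So does the analysis of variance, so no reversal could arise under these alternatives. Of 248 list medians 14 moved by more than the spread between samples. Without the filter those of the CDK inhibitors, BCL2 genes and matrix proteases became 0.05 (from -0.06), 0.07 and 0.25. With the mean of all probes of a gene the named genes that lost the call, beside those given with the results, were ACAT2 (-0.29), CTH (0.58), DUT (-0.42), IL1F10 (0.55), LAMB3 (0.29), LSS (0.26), MYC (0.52), OASL (-0.46), P4HA1 (0.38), P4HA2 (0.48), PMAIP1 (0.39), RFC5 (-0.34), UHRF1 (-0.37) and, by its adjusted p of 0.108, IGFBP4. The 471 genes called between day 4 and day 1 at 16Gy became 123 with Bonferroni-Holm adjustment, 114 with a fold threshold of 2, and 272 by the methods' analysis of variance over 12 groups with Bonferroni-Holm adjustment, which gives the fold but not the test of this pair of days. With each sample left out in turn the count ranged from 371 to 652. The 718 genes at 0Gy became 197 and 160 under the stricter adjustment and fold, the 322 at 8Gy 54 and 73, the 517 that differed between 16Gy and 0Gy 32 and 117, and the 16 between day 6 and day 4 became 4 and 3. With samples left out the 8Gy count was 102 to 516, the 0Gy count 638 to 856, the count of differences from 0Gy 335 to 597, and that of day 6 4 to 164. The day 6 count was also 6 without the variance trend and 7 with the mean of all probes, and centring on the median gave 20 genes, of which 55% were higher, against 43.8%. The count of differences between 16Gy and 8Gy was 0 under every alternative.

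Deviations of same-numbered samples of day 1 and day 4 correlated at 0.132, 0.014 and 0.0376 across genes, and the numbers were not taken to pair the samples. The authors' batch correction may have lowered these values, so they do not show that the samples were unpaired. With the replicate block the counts were 474 (all 471 shared), 727 at 0Gy, 326 at 8Gy, 529 for the difference from 0Gy, 0 for that from 8Gy and 26 between day 6 and day 4. Centring on the median shifted the differences by -0.00906 and repeated quantile normalization by -0.000994. Genes at background on day 1 have only a lower bound of their rise.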

Other observations

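Some genes that crossed the background between the days belong to no account above and were chosen after their values were seen. Of 5 genes that were above background in 0 of 3 samples of day 1 and in all 3 of day 4 at 16Gy, VCAM1, an adhesion receptor for leukocytes, was at least 1.56-fold higher, EDN1, the vasoconstrictor endothelin-1, at least 1.49-fold, and IL23A, a subunit of interleukin-23, at least 1.37-fold, beside ANKRD1 at 1.52-fold and IL1F10 at 1.63-fold. EDN1 was not called without day 4 replicate 2 (log2 difference 0.58) and IL23A not without day 1 replicate 1 or day 4 replicate 3 (0.44 without the latter). Among the runs of neighbouring genes with the same call were also SNORD3A, SNORD3C and SNORD3D, near-identical small nucleolar RNA genes whose probes may share signal. SNORD3C was not called without day 4 replicate 3 (0.46).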
